A study of Arabidopsis thaliana with 57 samples.

Results

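The 10 genes described here encode the enzymes that turn chloroplast fatty acid into jasmonate in Arabidopsis thaliana, and the pair of vegetative storage proteins that leaves make when jasmonate is active. They were chosen by gene identifier, as 10 of the 28775 genes in the table: the lipoxygenases LOX2 (AT3G45140), LOX3 (AT1G17420) and LOX4 (AT1G72520), the allene oxide synthase AOS (AT5G42650), the allene oxide cyclases AOC1 (AT3G25760) and AOC2 (AT3G25770), the reductase OPR3 (AT2G06050), the conjugating enzyme JAR1 (AT2G46370), and the output genes VSP1 (AT5G24780) and VSP2 (AT5G24770). All 10 were among the 19010 genes with a mean level high enough to test. Jasmonate synthesis starts in the chloroplast, where 13-lipoxygenases oxygenate linolenic acid, AOS and the cyclases form the ring of 12-oxo-phytodienoic acid, and OPR3 reduces that ring in the peroxisome before beta-oxidation shortens the side chain. JAR1 joins the product to isoleucine, and the conjugate brings the receptor COI1 and the JAZ repressors together, which frees MYC transcription factors. The pathway is best known in leaves for wounding and insect defence, and its own synthesis genes are among its targets.

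RNA was sequenced from rosette leaves of wild-type Col-0 plants, the standard laboratory accession, at 18 days of age and 6 h after the lights came on, to ask how far stress responses revert. Standard conditions were 12 h of light at 22 °C and 120 µmol m-2 s-1, with nights at 18 °C. End-point plants entered stress on day 15, and recovery plants were stressed for 3 days from day 12 and then returned to standard conditions for 3 days. High light was 350 µmol m-2 s-1, heat was 27 °C by day and 23 °C by night, and cold was 12 °C and 8 °C with 80 µmol m-2 s-1, or 200 µmol m-2 s-1 for cold with high light. Humidity meant sealed trays holding excess water, drought meant too little water, and heat was also combined with drought and with high light. This gives 8 stresses, each with an end-point and a recovery group, and 1 unstressed control group, with 3 libraries in each of the 17 groups. The control was grown with the recovery plants, and its 3 libraries are shared by every comparison with the control. Nothing in the labels says that libraries of a group came from separate sowings, so p-values reflect the scatter among these libraries, which may be technical.

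Levels are regularized log values (rlog, a log2 scale) after each library was aligned on its median over the tested genes. Before that alignment, the group medians of heat with drought, drought, cold with high light, cold and high light end-points lay 0.73, 0.54, 0.51, 0.34 and 0.13 above the control, and those of heat with high light end-points and of recovery from drought and high light 0.10, 0.12 and 0.10 above it. A difference is a difference of group means on this scale with its standard error (SE), and a gene passed at an adjusted p of 0.05 by limma's moderated test over all 19010 genes. Depth is unknown, since no counts were used. Levels are not per length, so they are compared between groups and never between genes. The 3 rosette leaf markers RBCS1A, LHCB1.3 and RCA averaged 18.1 to 18.2 per library in the control. They averaged 16.8 to 17.4 in drought, where 2 of 3 fell, and 15.8 to 16.7 in heat with drought, where 3 of 3 fell. Guard cell markers fell in 3 of 3 in both, and phloem markers rose in 2 of 3 in both. On the values as deposited, before alignment, 1 leaf marker and 2 guard cell markers fell in drought, and 3 of 3 phloem markers rose in both. In bulk leaves, fewer cells of a type and less RNA per cell cannot be told apart, and the part of these shifts in the results below was not tested. The recovered cold with high light library 2 stood apart, with a rosette leaf marker average of 15.1 against 18.1 and 18.2 in the other two.

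**Figure D1:**
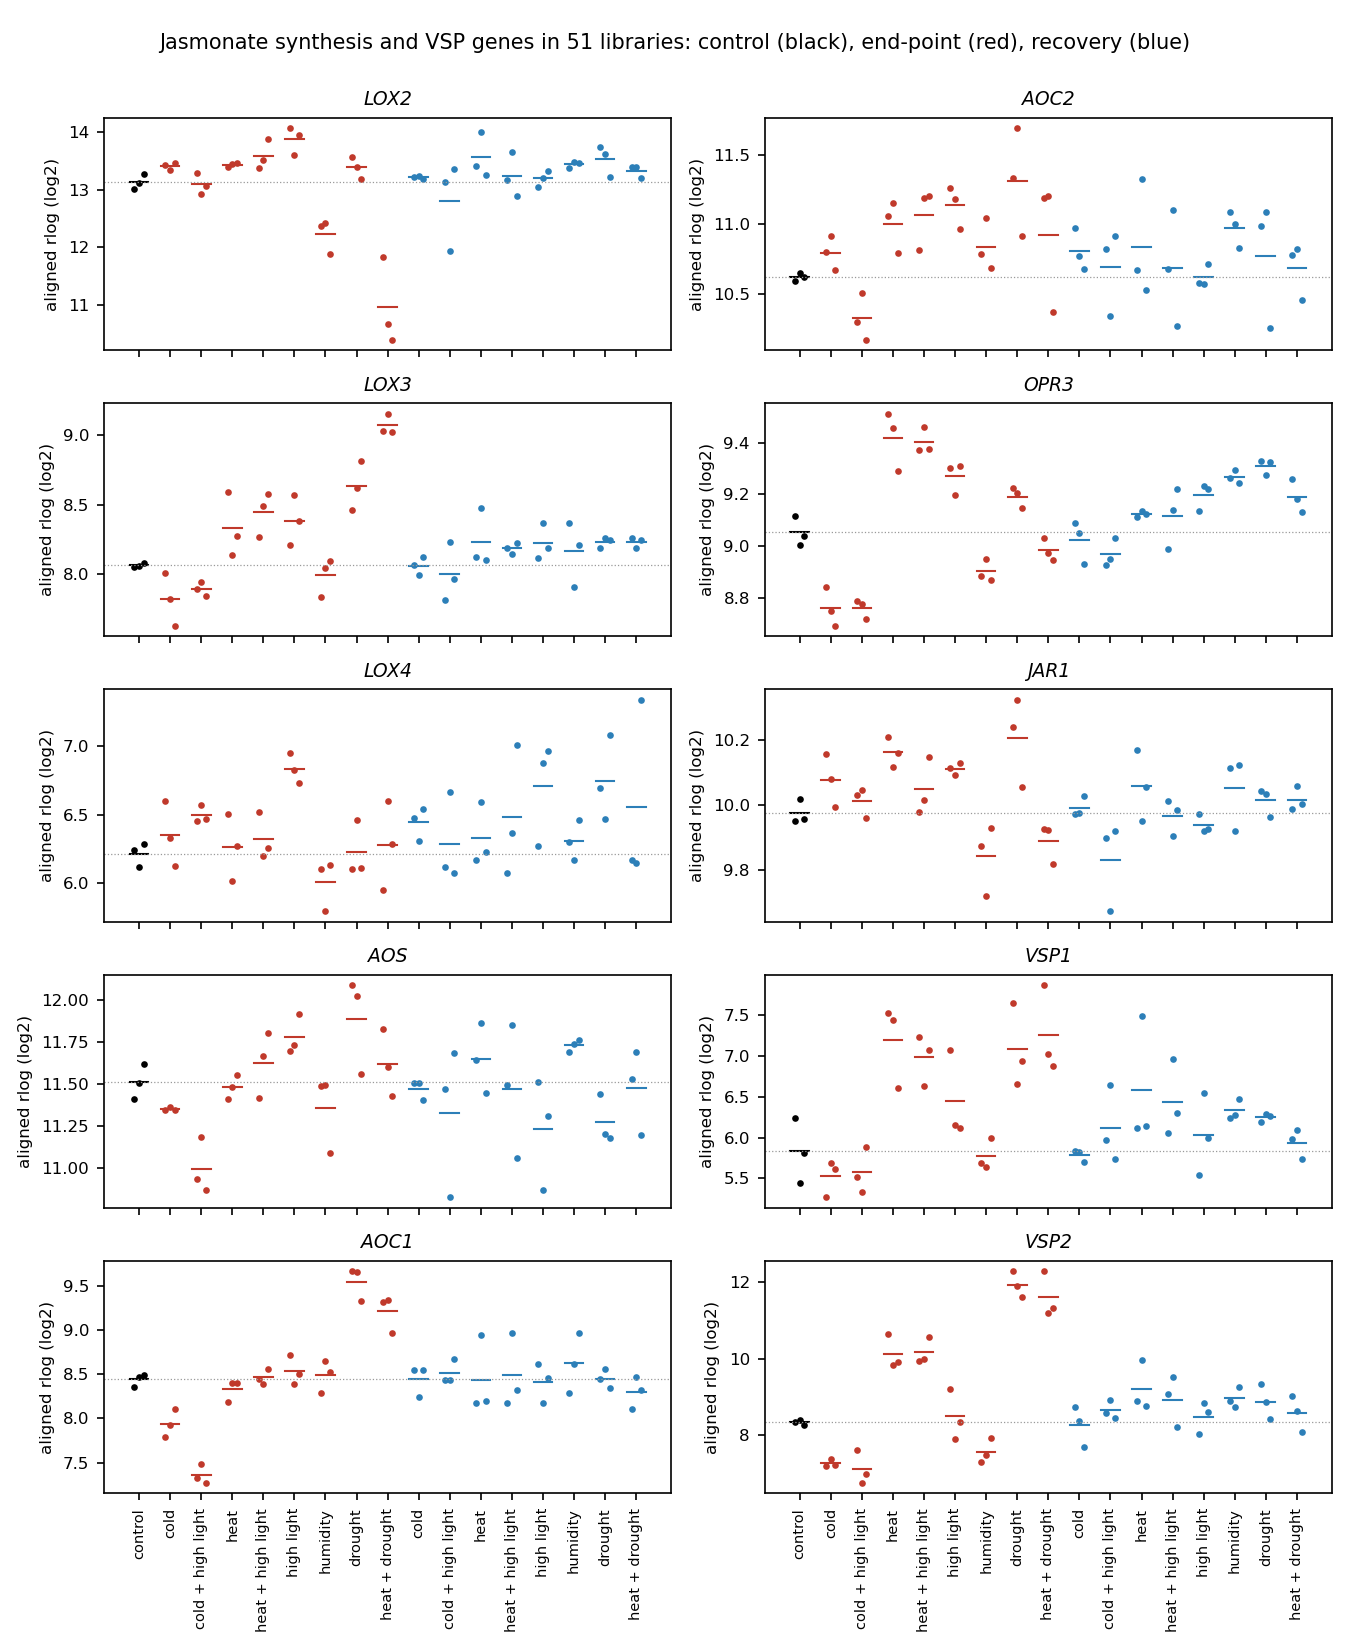
Aligned rlog (log2, y axis, scaled separately for each gene) of the 10 genes in 51 libraries, with 1 point per library, a line at each group mean and a dotted line at the control mean. The end-point groups (red) spread widely for VSP2, LOX2 and AOC1, while the recovery groups (blue) of these genes spread less from the control (black). Recovery differences ran from 0.07 to 0.53 for LOX4, from -0.05 to 0.75 for VSP1 and from -0.06 to 0.87 for VSP2, mostly above the control.

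Members sit in the genome as single genes and as tandem neighbours. VSP2 and VSP1 lie on the minus strand of chromosome 5 with 5365 bases between them, and AOC1 and AOC2 on the plus strand of chromosome 3 with 1330 bases between them. Their coding sequences are 89.5% identical for VSP1 and VSP2 and 90.3% identical for AOC1 and AOC2, against 80.6% for LOX3 and LOX4. The longest identical coding runs are 54, 47 and 24 bases, shorter than the paired reads of 150 bases, but how reads matching both copies were counted is not given in the sources used here, so the split within a pair is uncertain. No annotated gene overlaps any of the 10. Below are the 300 bases before the annotated starts of both tandem pairs, from RefSeq TAIR10.1, shown because 4 of the 10 members are tandem copies. Capitals mark the longest run that the partners share, 23 bases for the VSP pair and 19 bases for the AOC pair, within windows that are 80.8% and 51.9% identical over their aligned bases.
VSP1 (chr5:8509202-8509501, minus strand): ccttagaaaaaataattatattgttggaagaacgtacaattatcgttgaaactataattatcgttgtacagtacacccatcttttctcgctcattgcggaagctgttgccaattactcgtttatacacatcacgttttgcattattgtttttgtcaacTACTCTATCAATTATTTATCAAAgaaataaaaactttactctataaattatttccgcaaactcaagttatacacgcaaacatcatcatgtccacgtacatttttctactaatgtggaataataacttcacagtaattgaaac
VSP2 (chr5:8502225-8502524, minus strand): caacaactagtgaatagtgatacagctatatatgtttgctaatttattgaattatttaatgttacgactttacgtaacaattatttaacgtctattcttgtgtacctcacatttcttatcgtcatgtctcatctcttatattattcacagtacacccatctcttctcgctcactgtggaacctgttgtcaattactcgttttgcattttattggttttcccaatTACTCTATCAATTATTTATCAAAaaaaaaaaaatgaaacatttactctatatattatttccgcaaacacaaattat
AOC1 (chr3:9403479-9403778, plus strand): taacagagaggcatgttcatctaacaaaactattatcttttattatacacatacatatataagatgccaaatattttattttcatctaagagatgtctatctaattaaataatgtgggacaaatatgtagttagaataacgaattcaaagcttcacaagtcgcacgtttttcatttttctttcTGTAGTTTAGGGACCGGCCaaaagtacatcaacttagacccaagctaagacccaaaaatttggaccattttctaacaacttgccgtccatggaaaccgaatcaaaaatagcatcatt
AOC2 (chr3:9406369-9406668, plus strand): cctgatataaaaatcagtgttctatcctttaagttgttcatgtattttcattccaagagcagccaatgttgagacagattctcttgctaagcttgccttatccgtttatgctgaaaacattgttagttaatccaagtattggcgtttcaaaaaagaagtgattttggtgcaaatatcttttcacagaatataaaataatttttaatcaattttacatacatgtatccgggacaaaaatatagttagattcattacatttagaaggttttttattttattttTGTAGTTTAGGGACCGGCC

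The windows were also searched on both strands for the G-box bound by MYC2, with the letters CACGTG, and for a G-box variant that MYC2 also binds, with the letters CACATG. The G-box was present in 1 of the 10 windows, that of AOS, and the variant in 3, those of LOX2, LOX3 and JAR1, with no overlap between the motifs. Among 27443 windows of this length, 7.09% held the G-box and 13.1% the variant. The remaining 6 members held neither in 300 bases. The windows of AOS and LOX2 are printed with the motif in capitals, 6 bases before the start in AOS and 97 bases before it in LOX2, since these genes act early in the pathway.
AOS (chr5:17099596-17099895, minus strand): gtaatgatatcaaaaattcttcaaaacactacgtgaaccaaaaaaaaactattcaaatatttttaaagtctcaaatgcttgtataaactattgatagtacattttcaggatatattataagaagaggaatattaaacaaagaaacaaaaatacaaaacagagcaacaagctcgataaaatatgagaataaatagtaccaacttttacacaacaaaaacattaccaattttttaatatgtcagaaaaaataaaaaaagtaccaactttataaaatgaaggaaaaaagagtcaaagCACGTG
LOX2 (chr3:16524945-16525244, plus strand): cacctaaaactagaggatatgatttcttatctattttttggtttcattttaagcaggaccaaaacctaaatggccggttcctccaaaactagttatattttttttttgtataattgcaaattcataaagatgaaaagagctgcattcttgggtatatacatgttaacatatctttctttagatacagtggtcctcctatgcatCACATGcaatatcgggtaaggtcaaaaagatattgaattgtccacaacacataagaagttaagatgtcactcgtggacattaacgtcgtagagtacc

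LOX2 is the 13-lipoxygenase responsible for most of the jasmonate made soon after wounding in leaves. Across all groups on aligned values its level fell at 2 of the 8 end-points, in heat with drought and in humidity, and passed as higher at none. In a fit on the compared groups only, LOX2 passed as higher in cold (0.27, adjusted p = 7.56e-04), heat (0.29, 0.0487) and high light (0.74, 0.0113). Control libraries held 13.02, 13.13 and 13.27, and the heat with drought libraries 10.39, 10.67 and 11.84, so the groups lay far apart and the stressed libraries spread widely. The difference was -2.17 ± 0.26, a level 4.51-fold lower (adjusted p = 8.66e-10), and it stayed between -2.61 and -1.89 when any 1 of the 6 libraries was left out. The humidity libraries held 11.88, 12.37 and 12.42, all below the control, a difference of -0.91 ± 0.26 (adjusted p = 0.0252). That call was lost without humidity library 3 (adjusted p = 0.207), control library 2 (0.073) or control library 3 (0.114). Drought alone left LOX2 at 13.19, 13.40 and 13.57, which overlaps the control. As deposited, LOX2 passed as higher in drought (0.79, adjusted p = 0.00438), in cold (0.61, 0.031) and in high light (0.87, 0.039), and its fall in heat with drought and in humidity still passed. High light gave the top of the order, with 13.60, 13.95 and 14.07, all above the control (0.74 ± 0.26) but not passing across all groups. Of the 16 steps between neighbouring groups in the order of LOX2 levels, 15 joined groups whose libraries overlapped, and the exception set heat with drought below humidity.

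LOX3 and LOX4 are close relatives that, among other roles, act in male fertility and in defence. LOX3 rose in drought and in heat with drought. Its control libraries were tight at 8.06, 8.06 and 8.08, drought gave 8.46, 8.62 and 8.81, and heat with drought gave 9.02, 9.03 and 9.15. Neither dry group overlapped the control, and they did not overlap each other. The differences were 0.57 ± 0.12 in drought (adjusted p = 4.86e-05) and 1.00 ± 0.12 in heat with drought, a 2.00-fold rise (adjusted p = 3.48e-10). LOX3 and LOX2 therefore went opposite ways in heat with drought within the same 3 libraries. Without cold library 1, LOX3 also passed as lower in cold (-0.34, adjusted p = 0.0383), and as deposited it passed as higher in cold with high light (0.35, adjusted p = 0.0253). Across all groups on aligned values LOX4 passed at 0 of 8 end-points, although 5 members including it had an unadjusted p under 0.05 in high light. In a fit on the compared groups only, LOX4 passed as higher in high light (0.62, adjusted p = 0.00251) and in cold with high light (0.28, 0.0181). Its 3 high light libraries, at 6.73, 6.83 and 6.95, all stood above the control libraries at 6.12, 6.24 and 6.29 (0.62 ± 0.23, adjusted p = 0.195). As deposited, LOX4 passed as higher in cold with high light (0.79, adjusted p = 0.00859) and in heat with drought (0.80, 0.00702). LOX4 was uneven among recovered plants, with single high libraries at 7.34 after heat with drought, 7.08 after drought and 7.01 after heat with high light.

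AOS makes the unstable allene oxide that the cyclases use, and as the only gene for that step it is needed for all jasmonate. It fell in cold with high light, where the libraries held 10.87, 10.93 and 11.18 against 11.41, 11.51 and 11.62 in the control, a difference of -0.52 ± 0.18 (adjusted p = 0.0127). The groups did not overlap, but the call was lost without stressed library 3 (adjusted p = 0.0563) or control library 3 (0.0527), and as deposited the difference was -0.01. Drought libraries held 11.56, 12.02 and 12.09 and had the highest mean of all groups, and 1 of them fell within the control range (0.38 ± 0.18). That difference did not pass across all groups on aligned values, but it lay near the threshold and passed under 5 other settings. These were the values as deposited (0.92, adjusted p = 4.54e-07), quantile normalization (0.44, 0.0166), no filter on low values (0.0496), a fit on the compared groups only (0.039), and the odd recovered library left out of the spread (0.0354). It also passed without drought library 3 (0.54, adjusted p = 0.0131). As deposited, AOS was higher in heat with drought as well (0.84, adjusted p = 1.38e-06).

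The cyclases direct the allene oxide to the biologically active form of the ring, and AOC1 and AOC2 are tandem copies. AOC1 rose in drought and heat with drought and fell in cold and cold with high light. Control libraries held 8.36, 8.47 and 8.50, drought 9.32, 9.65 and 9.67, and heat with drought 8.97, 9.32 and 9.34, so both dry groups stood clear of the control and overlapped each other. The rise was 1.10 ± 0.17 in drought, 2.15-fold (adjusted p = 9.19e-07), and 0.77 ± 0.17 in heat with drought (adjusted p = 1.45e-04). Cold with high light libraries held 7.27, 7.33 and 7.48, the lowest of any group, a fall of 2.12-fold (-1.08 ± 0.17, adjusted p = 2.45e-06). Cold libraries held 7.78, 7.93 and 8.11 and also lay below the control (-0.50 ± 0.17, adjusted p = 0.0199). This smaller fall was lost without cold library 1 (adjusted p = 0.0923) or 2 (0.0505), or without control library 2 (0.0551) or 3 (0.0612), and as deposited it was -0.16. Across all groups on aligned values AOC2 passed once, in drought (0.69 ± 0.22, adjusted p = 0.00597). Its drought libraries held 10.92, 11.33 and 11.69 above a control of 10.59, 10.62 and 10.65. In a fit on the compared groups only it also passed as higher in cold (0.18, adjusted p = 0.0172) and heat (0.38, 0.0268). That fit added heat with high light (0.45, 0.042) and high light (0.52, 0.0011). It also passed there as lower in cold with high light (-0.30, 0.0022), the lowest group, with libraries from 10.17 to 10.51. Without drought library 2 the AOC2 difference was 0.50 and did not pass (adjusted p = 0.0616). Without heat with drought library 3 it passed there too (0.58, adjusted p = 0.0222). As deposited, AOC2 passed as higher in heat with drought with all libraries (1.03, adjusted p = 2.43e-05) and in cold (0.52, 0.0317). Whether AOC1 and AOC2 differed from each other in their responses was not tested.

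OPR3 reduces the ring precursor, the last step before beta-oxidation, and its libraries agreed closely, with a median SD of 0.05 over the groups. It rose in heat, in heat with high light and in drought, and fell in both cold groups. Control libraries held 9.01, 9.04 and 9.12. Heat gave 9.29, 9.46 and 9.51 (0.37 ± 0.06, adjusted p = 0.00111) and heat with high light 9.37, 9.38 and 9.46 (0.35 ± 0.06, adjusted p = 0.00388), all above the control. The 2 cold groups were alike in mean, at -0.29 ± 0.06 each, with libraries from 8.69 to 8.84 in cold and from 8.72 to 8.79 in cold with high light, below every control library. Those falls depend on the alignment of the libraries: as deposited, OPR3 differed by 0.05 in cold and by 0.22 in cold with high light, where it passed as higher. The drought rise was small, 0.14 ± 0.06 (adjusted p = 0.0454), and was lost without drought library 1 or 2 or control library 2 or 3 (adjusted p up to 0.150). It was also lost under quantile normalization (0.07, adjusted p = 0.347), with no filter on low values (0.0548), with a mean rlog of at least 5 (0.0542), and in a fit on the compared groups only, without (0.137) and with the replicate block (0.202). In heat with drought, where OPR3 did not pass on aligned values, it passed as higher as deposited (0.67, adjusted p = 3.83e-08) and as lower under quantile normalization (-0.19, 0.00624). The heat call was lost without heat library 1 (adjusted p = 0.0522), and the heat with high light call without its library 2 (0.0699) or control library 2 (0.0745).

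JAR1, the enzyme that makes the isoleucine conjugate perceived by the receptor, was the steadiest member. Its group means spanned 0.38, and 8.31% of tested genes had a smaller span, with a median span over all genes of 0.844. On aligned values it passed at 1 of the 8 end-points, in drought, where it rose from 9.95, 9.96 and 10.02 in the control to 10.06, 10.24 and 10.32 (0.23 ± 0.07, adjusted p = 0.00446). The drought and control libraries did not overlap, but the difference amounts to 1.17-fold. The other end-points depend on the scaling. As deposited, JAR1 passed as higher in cold (0.44, adjusted p = 1.46e-05), cold with high light (0.55, 1.30e-07) and heat with drought (0.65, 1.56e-09), while under quantile normalization it passed as lower in heat with drought (-0.26, 0.00124). For comparison, VSP2 spanned 4.80, above 99.1% of the genes tested, LOX2 2.91, AOC1 2.19, VSP1 1.73 and LOX3 1.25.

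VSP1 and VSP2 encode acid phosphatases that act as storage and anti-insect proteins, and their transcripts are used as readouts of the MYC branch of jasmonate signalling. VSP2 had the widest range of group means among the members. Its control libraries held 8.27, 8.34 and 8.39. Drought brought it to 11.60, 11.88 and 12.29, a 12.0-fold rise (3.59 ± 0.37, adjusted p = 2.92e-10), and heat with drought to 11.20, 11.33 and 12.28, a 9.67-fold rise (3.27 ± 0.37, adjusted p = 7.25e-10). The 2 dry groups overlapped each other and stood apart from all others, with a gap of 1.43 to the next group mean. Heat libraries held 9.82, 9.90 and 10.64, and those of heat with high light ran from 9.94 to 10.58, also clear of the control. These rises were 1.79 ± 0.37 (3.45-fold, adjusted p = 0.0159) and 1.84 ± 0.37 (3.58-fold, adjusted p = 0.0161). VSP2 fell in cold, to 7.19, 7.23 and 7.38 (-1.07 ± 0.37, adjusted p = 0.0198), and in cold with high light, to 6.75, 6.99 and 7.62 (-1.21 ± 0.37, adjusted p = 0.0059), again with no overlap. As deposited, these falls were -0.73 and -0.70 and did not pass. The fall in cold was also lost without cold library 1 (adjusted p = 0.0555) or control library 2 (0.0538). In high light, the VSP2 libraries at 7.91, 8.34 and 9.22 spread on both sides of the control.

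VSP1 rose in heat, drought and heat with drought, and its libraries were more uneven. The control held 5.44, 5.81 and 6.24, drought 6.66, 6.94 and 7.65, heat 6.61, 7.44 and 7.53, and heat with drought 6.87, 7.03 and 7.87. Every library of these 3 groups was above every control library, and the 3 stressed groups overlapped one another. The rises were 1.25 ± 0.33 in drought (2.38-fold, adjusted p = 0.00135), 1.43 ± 0.33 in heat with drought (2.69-fold, adjusted p = 2.42e-04) and 1.36 ± 0.33 in heat (2.57-fold, adjusted p = 0.0411). The VSP1 libraries of drought and heat overlapped, whereas every VSP2 library in drought lay above every one in heat, and this contrast was not tested. The VSP1 and VSP2 calls in heat did not hold in most refits without 1 library. The differences themselves stayed between 1.17 and 1.65 for VSP1 and between 1.53 and 1.94 for VSP2. Leaving out heat library 1 gave VSP1 1.19 (adjusted p = 0.422) and VSP2 1.53 (adjusted p = 0.273). VSP1 was also lost without heat library 2 (adjusted p = 0.0935) or any control library (0.0668 to 0.222), and VSP2 without any control library (0.0633 to 0.0681). VSP2 in heat with high light was lost without its library 2 (adjusted p = 0.0699) or 3 (0.105) or any control library (0.0807 to 0.0944).

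**Figure D2:**
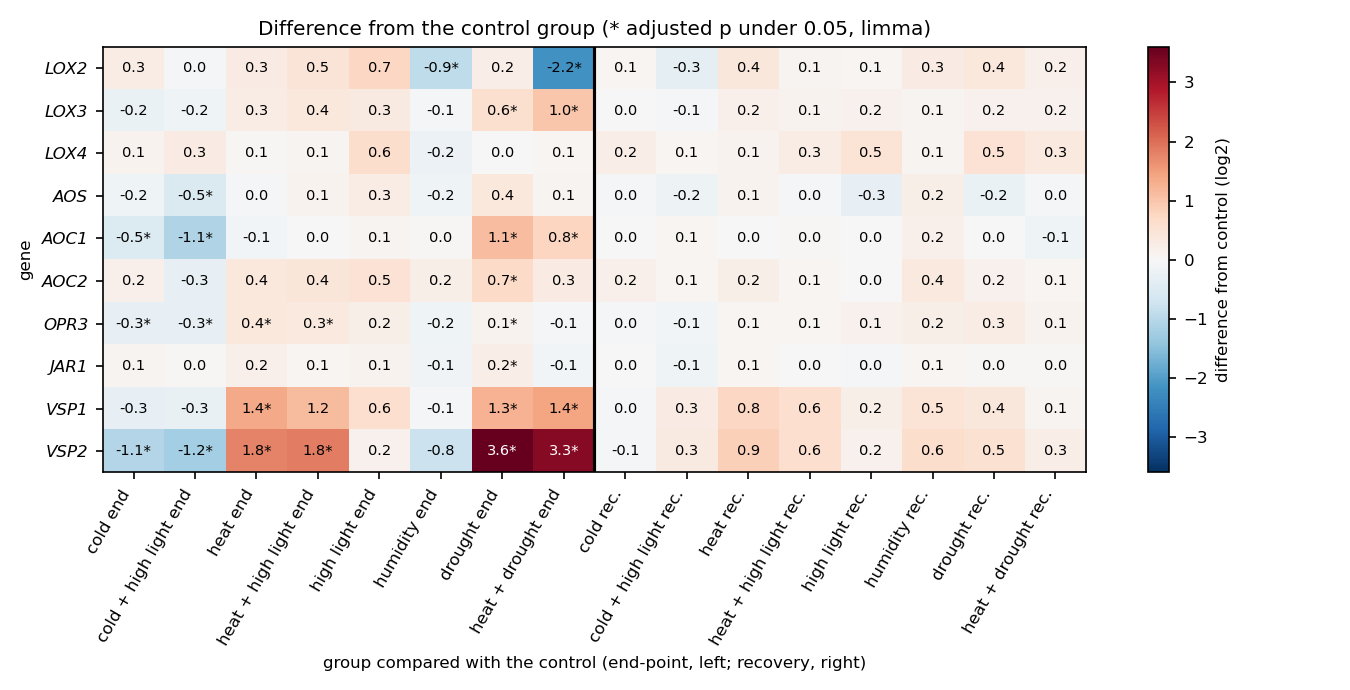
Differences from the control (log2, colour and printed value rounded to 1 decimal) of the 10 genes (rows) at the end-points (left) and after recovery (right) of 8 stresses, with stars where limma's adjusted p was under 0.05 on aligned values. The end-point side holds 16 higher and 9 lower calls, with VSP2 in drought at 3.59 and LOX2 in heat with drought at -2.17 at the extremes, and the recovery side holds none.

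Read by stress, drought moved the members upward. In drought 7 of 10 members were higher and 0 lower, while 25.3% of all genes tested were higher and 42.2% lower, and the median difference was 0.47 over the members and -0.13 over all genes. The 3 that did not pass were LOX2, LOX4 and AOS. As deposited 9 were higher, LOX2 and AOS included, against 61.4% of all genes higher and 9.57% lower. In heat with drought 4 were higher (LOX3, AOC1, VSP1 and VSP2) and 1 lower (LOX2), with 32.2% and 46.5% of all genes. As deposited, LOX4, AOS, AOC2, OPR3 and JAR1 passed there too, which made 9 higher and 1 lower against 66.7% and 13.2% of all genes, and under quantile normalization OPR3 and JAR1 passed as lower. Heat gave 3 higher (OPR3, VSP1 and VSP2), with 0.368% of all genes higher and 0.431% lower, and heat with high light gave 2 (OPR3 and VSP2), with 0.158% higher and 0.0842% lower. In humidity 1 member, LOX2, was lower, with 3.58% of genes higher and 2.31% lower. Every VSP2 library there also lay below every control library (-0.76), but VSP2 did not pass across all groups. It passed as lower in a fit on the compared groups only (adjusted p = 0.0294), with 1.43% of genes lower, and with the replicate block in that fit (0.0482). Cold gave 3 lower (AOC1, OPR3 and VSP2) and 0 higher, with 18.3% of genes higher and 21.7% lower, and cold with high light gave 4 lower (the same 3 and AOS), with 23.3% higher and 29.4% lower. As deposited these became 3 higher and 0 lower in cold, against 54.2% and 2.17% of genes, and for cold with high light 4 higher and 1 lower, against 68.2% and 2.53%. High light gave 0 calls by limma's test across all groups, with 5 members at an unadjusted p under 0.05, and 0.405% of all genes higher and 0.689% lower. In a fit on the compared groups only, LOX2, LOX4 and AOC2 passed there as higher, with 2.02% of genes higher and 2.62% lower. As deposited, LOX2 and OPR3 (0.35, adjusted p = 0.0338) passed as higher, with 3.02% of genes higher. OPR3 also passed with the odd recovered library left out of the spread (0.22, 0.0471). Over the 80 gene and stress pairs this makes 16 higher and 9 lower calls, which become 32 and 3 when the values are used as deposited.

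Same-numbered libraries of the control and of heat, high light or heat with high light deviated together, with correlations of at least 0.158, 0.177 and 0.205, so a fit with the replicate number as a block on those groups alone was added after the data were seen. In it, high light gave 6 higher members, LOX2 (0.74, adjusted p = 0.00144), LOX3 (0.32, 0.0326), LOX4 (0.62, 0.00144), AOS (0.27, 0.016), AOC2 (0.52, 4.64e-04) and VSP1 (0.62, 0.00353), where 4.84% of all genes were higher. In heat that fit added LOX2 (0.29, adjusted p = 0.0232) and AOC2 (0.38, 0.00615) and lost VSP1 (0.0867), with 4.23% of genes higher. In heat with high light it added LOX2 (0.46, adjusted p = 2.80e-05), LOX3 (0.38, 0.0072), AOC2 (0.45, 0.00124) and VSP1 (1.15, 1.96e-06), with 3.26% higher. Part of these changes came without the block, in the fit on the compared groups only. In heat that fit already added LOX2 (adjusted p = 0.0487) and AOC2 (0.0268) and lost VSP1 (0.127), with 1.5% of genes higher. In heat with high light it added LOX3 (0.0195) and AOC2 (0.042), with 1.74% higher, and in high light LOX2, LOX4 and AOC2.

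The joint action of heat and drought was tested as an interaction, the difference between the combined stress and the sum of its parts. For LOX2 each stress alone left a difference that did not pass across all groups, 0.29 ± 0.26 in heat and 0.25 ± 0.26 in drought, and the level under both fell. The heat difference passed in a fit on the compared groups only (adjusted p = 0.0487) and with the replicate block in that fit (0.0232), and the drought difference passed as deposited (0.79, 0.00438). The LOX2 interaction was -2.72 ± 0.37 (adjusted p = 8.21e-06), between -3.15 and -2.43 when 1 library was left out. VSP2 rose under each stress, and the combination fell short of the sum by -2.11 ± 0.52 (adjusted p = 0.00577). OPR3 rose in heat and lay at 8.95, 8.97 and 9.03 in the combination, an interaction of -0.57 ± 0.09 (adjusted p = 4.66e-05), and JAR1 had one of -0.50 ± 0.10 (adjusted p = 9.14e-04). Thus 4 of 10 members were below the sum and 0 above it, where 8.22% of all genes were below and 7.97% above. In a fit on these 4 groups alone, VSP2 (adjusted p = 0.0629) and JAR1 (0.0664) no longer passed. VSP1 had -1.19 ± 0.47 and AOC2 -0.78 ± 0.31, which did not pass (adjusted p = 0.0785 and 0.0808). VSP1 passed without heat with drought library 1 (-1.49, adjusted p = 0.0223) or heat library 3 (-1.48, 0.0398). AOC2 passed without heat with drought library 1 (-0.91, adjusted p = 0.0397) or 2 (-0.92, 0.0467), or drought library 3 (-0.97, 0.0234). LOX3 (0.17 ± 0.16) and AOC1 (-0.22 ± 0.25) did not pass either.

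**Figure D3:**
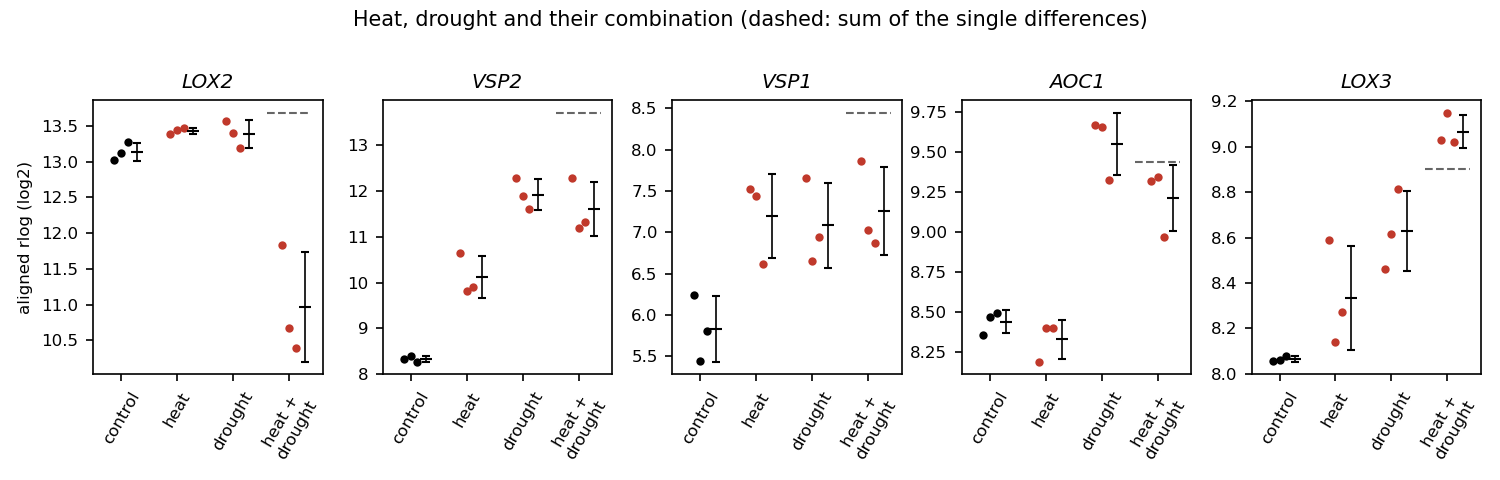
Aligned rlog (log2, y axis, scaled separately for each gene) of 5 members in control, heat, drought and heat with drought libraries, with 3 points per group and the mean ± SD beside them. The dashed line marks the level at which heat and drought differences would simply add, and the combined stress lay below it by 2.72 for LOX2 and 2.11 for VSP2.

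Set directly against drought, heat with drought had lower LOX2 (-2.42 ± 0.26, 5.36-fold, adjusted p = 1.15e-08), OPR3 (-0.21 ± 0.06, adjusted p = 0.00627) and JAR1 (-0.32 ± 0.07, adjusted p = 5.34e-04), and higher LOX3 (0.44 ± 0.12, adjusted p = 0.00267). That is 1 member higher and 3 lower, with 20.4% and 23.8% of all genes. VSP1 (0.17 ± 0.33) and VSP2 (-0.32 ± 0.37) did not pass. None of the 4 calls held in a fit on the 6 libraries alone, where LOX2 had an adjusted p of 0.0534 and 0.163% of all genes were higher and 0.153% lower. These numbered libraries also deviated together, and with the replicate block in that small fit 6 members passed. LOX2 and JAR1 passed again as lower and LOX3 as higher. AOS (-0.27, adjusted p = 0.0401), AOC1 (-0.34, 0.0107) and AOC2 (-0.39, 0.0087) were added as lower and OPR3 did not pass (0.0854), with 18.2% of genes lower. Without drought library 3, AOC2 passed as well (-0.59, adjusted p = 0.0387). As deposited, OPR3 (-0.01) and JAR1 (-0.12) did not pass.

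The 2 opposite water treatments, shortage and excess, were also compared directly, with no control involved. Drought stood above humidity for 8 members and below it for 0, with 25% of all genes higher and 41.8% lower. The VSP2 gap was 20.5-fold (4.36 ± 0.37, adjusted p = 2.63e-12), with humidity libraries at 7.29, 7.49 and 7.92. LOX2 was higher in drought by 1.16 ± 0.26 (adjusted p = 1.55e-04), AOC1 by 1.06 ± 0.17 (adjusted p = 2.00e-06) and VSP1 by 1.31 ± 0.33 (adjusted p = 8.89e-04). The other 4 were LOX3 (0.64), AOS (0.54), JAR1 (0.37) and OPR3 (0.29). AOS lost its call without drought library 1 (adjusted p = 0.0516) or humidity library 3 (0.0677), and AOC2 gained one without drought library 3 (0.67, adjusted p = 0.0157) or humidity library 2 (0.57, 0.0423).

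The effect of light added to heat or to cold was tested in the same way. The interaction of heat with high light gave 0 calls among the members by limma's test, with 2 at an unadjusted p under 0.05, while 0% of all genes were above the sum and 0.00526% below it. With the replicate block in a fit on those groups alone, LOX4 had an interaction of -0.56 (adjusted p = 0.0189), and 3% of genes were below. Cold with high light against cold also gave 0 calls, with 2 at an unadjusted p under 0.05, and 1.68% of genes higher and 1.63% lower. AOC1 differed most there (-0.58 ± 0.17) and passed in some refits: without any filter on low values (adjusted p = 0.034), with the replicate number as a block (0.0464), and with the odd recovered library left out of the spread (0.0455). In a fit on the 6 cold libraries alone, LOX2 (-0.32), AOS (-0.36), AOC1 (-0.58) and AOC2 (-0.47) all passed as lower with added light (adjusted p = 0.0316, 0.0017, 4.11e-04 and 0.00358), where 5.99% of all genes were lower.

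After recovery, no member passed against the control in any of the 8 comparisons, and neither did any of the 19010 genes, so percent called was 0% in each. At an unadjusted p under 0.05 there were 0 members in cold (191 of all 19010 genes) and in heat with high light (252). There was 1 each in cold with high light (2273 genes), heat with drought (400) and humidity (263). Drought (2853 genes), heat (226) and high light (1671) had 2 each. All 80 recovery differences lay between -0.33 and 0.87, against -2.17 to 3.59 at the end-points, and the median of their absolute sizes was 0.14 against 0.28. VSP2 gave the highest, 0.87 ± 0.37 after heat, where the libraries held 8.75, 8.88 and 9.96 and all lay above the control. VSP2 after drought lay at 8.41, 8.86 and 9.32, likewise above every control library, a difference of 0.53 ± 0.37. LOX2 after heat with drought was back at 13.20, 13.39 and 13.40. OPR3 after drought, at 9.28, 9.32 and 9.33, also lay above every control library (0.26 ± 0.06, adjusted p = 0.177), and it passed in a fit on those 6 libraries alone (adjusted p = 0.0455), where 2.15% of genes were higher.

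The returns were tested by setting each recovery group against its own end-point. VSP2 changed by -3.06 ± 0.37 after drought (adjusted p = 1.09e-08) and by -3.02 ± 0.37 after heat with drought (adjusted p = 4.26e-09). LOX2 rose by 2.36 ± 0.26 after heat with drought (adjusted p = 1.19e-10) and by 1.22 ± 0.26 after humidity (adjusted p = 0.00158). After drought 7 members were lower than at the end-point and 0 higher, with 24.6% and 39.3% of all genes. After heat with drought 4 were lower (LOX3, AOC1, VSP1 and VSP2) and 2 higher (LOX2 and OPR3), with 32.1% and 45.9% of genes. As deposited the OPR3 change there was -0.51, and those in cold and in cold with high light, given next as higher, were -0.08 and -0.28. After cold 3 were higher (AOC1, OPR3 and VSP2) and 0 lower, with 20.8% and 17.3% of genes, and after humidity 3 were higher (LOX2, OPR3 and VSP2) and 0 lower, with 2.98% and 4.57%. OPR3 was the single member lower after heat and after heat with high light, with 0.352% and 0.142% of genes lower and 0.405% and 0.0421% higher. High light gave 0 calls across all groups, with 4 members at an unadjusted p under 0.05, and 0.473% of genes higher and 1.37% lower. In a fit on the compared groups only, AOC2 passed there as lower (-0.52, adjusted p = 0.0368), with 0.373% of genes lower. AOS passed as lower as deposited (-0.58, 0.0175) and with the odd recovered library left out of the spread (-0.55, 0.0371). After cold with high light AOC1, OPR3 and VSP2 were higher and JAR1 lower, with 32.2% and 27.1% of genes. Without the recovered library 2 that stood apart, OPR3 (0.22), VSP2 (1.40) and AOC1 still passed, JAR1 (-0.10, adjusted p = 0.24) did not, and AOS passed as higher (0.58, adjusted p = 0.00619).

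Several smaller returns lost their call when 1 library was left out. After drought, VSP1 (-0.83 ± 0.33) lost its call without end-point library 1 (-0.55, adjusted p = 0.193) or any recovery library (0.0511 to 0.0669). AOC2 lost it without end-point library 1 (0.0666) or 2 (0.201) or recovery library 3 (-0.28, 0.302), and JAR1 without the same libraries (0.0596, 0.132 and 0.0731). After cold, AOC1 lost its call without end-point library 1 (0.0922) or 2 (0.0505) or recovery library 1 (0.0755) or 3 (0.0736). VSP2 lost it there without any end-point library (0.0508 to 0.0764) or recovery library 1 (0.155) or 2 (0.0743). OPR3 lost its call after heat without end-point library 1 (0.248) or recovery library 3 (0.0648), and after heat with high light without any 1 of the 6 libraries (0.0519 to 0.298). VSP2 after humidity lost it without end-point library 1 (0.0532) or recovery library 3 (0.0702). JAR1 after cold with high light also lost it without end-point library 1 (0.0698) or 2 (0.0819). Values in parentheses without another name are adjusted p-values of limma's test. Calls were gained by LOX4 after drought, as higher, without end-point library 2 (0.63, adjusted p = 0.0341) or recovery library 2 (0.65, 0.029), and by LOX3 after cold, as higher, without end-point library 1 (0.34, 0.0413). Others gained were AOC2 after heat with drought, as lower, without end-point library 3 (-0.51, adjusted p = 0.0425), AOS after high light, as lower, without recovery library 1 (-0.70, 0.0343), and JAR1 after humidity, as higher, without recovery library 2 (0.28, 0.0289).

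Of the 13 gene and stress pairs with an end-point difference of at least 1 that passed, 10 met a rule for return, namely a passing difference back towards the control with no passing difference from it. The other 3 were VSP1 and VSP2 after heat and VSP2 after heat with high light. Their recovery differences from the control were 0.75, 0.87 and 0.60, their changes from the end-point were -0.61, -0.92 and -1.24, and neither set passed. No pair kept a passing difference from the control, but none could, since no gene tested passed there after recovery. That part of the rule was therefore met by every pair. The same end-point libraries entered both the choice of pairs and their change from the end-point. How many of all genes met the rule was not counted.

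**Figure D4:**
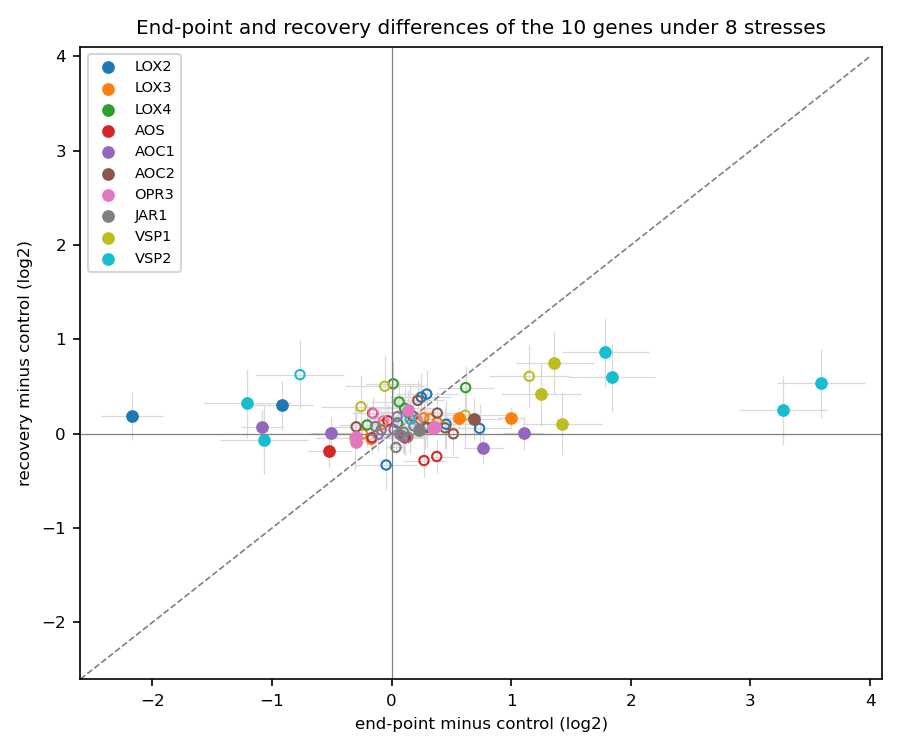
Recovery minus control (y axis, log2) against end-point minus control (x axis, log2) for 10 genes under 8 stresses, with grey bars for ± SE and filled points where the end-point difference passed limma's test. Points on the dashed line would have kept their end-point difference, and those on the horizontal line would have returned to the control, which both axes share.

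Other genes of the pathway were taken from lists of genes with known roles. On aligned values 25.3% of all genes tested were higher and 42.2% lower in drought, and 32.2% and 46.5% in heat with drought, and each count below stands against those shares. As deposited the shares were 61.4% and 9.57% in drought and 66.7% and 13.2% in heat with drought. Of 10 other synthesis genes, among them beta-oxidation genes and the cyclase gene AOC4, 6 were higher and 0 lower in drought. Their median was 0.41 against -0.13 over all genes. ACX1, an acyl-CoA oxidase, rose by 1.31 ± 0.13, and AIM1 and MFP2, multifunctional proteins of the same cycle, by 1.00 ± 0.09 and 0.93 ± 0.09. In heat with drought 6 of 10 were higher and 2 lower, led by ACX1 (2.28 ± 0.13), the thiolase KAT2 (1.63 ± 0.12) and MFP2 (1.35 ± 0.09). These enzymes also serve general fatty acid breakdown. As deposited 10 of 10 were higher in both dry groups. In cold 2 of 10 were lower, AIM1 (-0.43 ± 0.09) and the fourth cyclase gene AOC4 (-0.37 ± 0.11), and in cold with high light 3 were lower and 1 higher, where 21.7% and 29.4% of all genes were lower. As deposited neither AIM1 (-0.09) nor AOC4 (-0.03) passed in cold. There 4 genes of the list were higher and 0 lower, against 54.2% and 2.17% of all genes. In cold with high light these counts were 7 and 0, against 68.2% and 2.53%.

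Turnover genes oxidise, sulphate, hydrolyse or methylate jasmonates. In drought 3 of 8 were higher and 2 lower, against 25.3% and 42.2% of all genes, with JOX2, a jasmonate oxidase, at 1.47 ± 0.35, the sulphotransferase ST2A at 1.42 ± 0.39 and the methyltransferase JMT at -0.58 ± 0.12. In heat with drought 5 of 8 were higher and 2 lower, against 32.2% and 46.5%, with ST2A at 2.97 ± 0.39, JOX2 at 2.33 ± 0.35 and the amidohydrolase ILL6 at 0.99 ± 0.15. ST2A also rose in cold (1.69 ± 0.39), where 3 of 8 were lower against 21.7% of all genes. As deposited JMT (-0.04) did not pass in drought, and 5 of 8 were higher and 0 lower in drought and 6 and 0 in heat with drought. In cold 1 was higher and 0 lower as deposited, against 54.2% and 2.17% of all genes.

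Of the signalling genes, 6 of 8 were higher and 2 lower in drought, against 25.3% and 42.2% of all genes, with the transcription factor MYC2 at 0.68 ± 0.11, the repressor JAM1 at 0.41 ± 0.10 and the adaptor NINJA at 0.41 ± 0.07. In heat with drought 6 of 8 were higher and 1 lower, against 32.2% and 46.5%, with JAM1 at 0.87 ± 0.10, MYC4 at -0.64 ± 0.10 and MYC2 at 0.47 ± 0.11. As deposited 7 of 8 were higher and 0 lower in both, and MYC4 turned to 0.10 in heat with drought, not passing. MYC2 was also the 1 signalling gene of 8 that rose in heat (0.46 ± 0.11, adjusted p = 0.0305), where 0.368% of all genes were higher. It fell in cold (-0.35 ± 0.11) and in cold with high light (-0.33 ± 0.11), where the differences as deposited were -0.01 and 0.19 and did not pass, and it had an interaction of heat with drought of -0.67 ± 0.15 (adjusted p = 0.00271).

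The JAZ repressors are themselves jasmonate targets. Drought gave 3 of 10 higher and 2 lower, against 25.3% and 42.2% of all genes, with JAZ1 at 1.44 ± 0.30, JAZ10 at -0.97 ± 0.10 and JAZ12 at 0.97 ± 0.09. Heat with drought gave 6 higher and 2 lower, against 32.2% and 46.5%, with JAZ1 at 2.65 ± 0.30, JAZ12 at 1.29 ± 0.09 and JAZ6 at -1.24 ± 0.12. As deposited 8 of 10 were higher and 2 lower in both dry groups. In cold with high light 3 of 10 were lower and 0 higher, against 29.4% and 23.3% of genes. As deposited 0 were lower and 7 higher there, against 2.53% and 68.2% of genes. Of the other output genes, 2 of 8 were higher and 3 lower in drought, near the 25.3% and 42.2% over all genes, and 1 was higher and 3 lower in heat with drought, against 32.2% and 46.5%. As deposited 2 were higher and 2 lower in each. CORI3, a cystine lyase induced by coronatine, rose by 3.31 ± 0.22 in drought and 2.93 ± 0.22 in heat with drought and fell by 1.12 in humidity (SE 0.22). The chlorophyllase gene CLH1 differed by -1.12 ± 0.20 and -2.22 ± 0.20, and ORA59, a factor of the ethylene branch of jasmonate output, by -0.90 ± 0.14 and -1.08 ± 0.14.

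Genes of competing or separate oxylipin routes gave 2 of 5 higher and 1 lower in both dry groups, against 25.3% and 42.2% of all genes in drought and 32.2% and 46.5% in heat with drought. As deposited 4 of 5 were higher and 0 lower in both. HPL1, the hydroperoxide lyase that shares substrate with AOS, rose in drought (0.71 ± 0.14), and its interaction of heat with drought was -0.93 ± 0.20. The 9-lipoxygenases LOX1 and LOX5 went opposite ways, at 0.69 ± 0.11 and -0.62 ± 0.10 in drought and 0.87 ± 0.11 and -0.97 ± 0.10 in heat with drought, but as deposited the LOX5 differences of -0.08 and -0.23 did not pass.

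**Figure D5:**
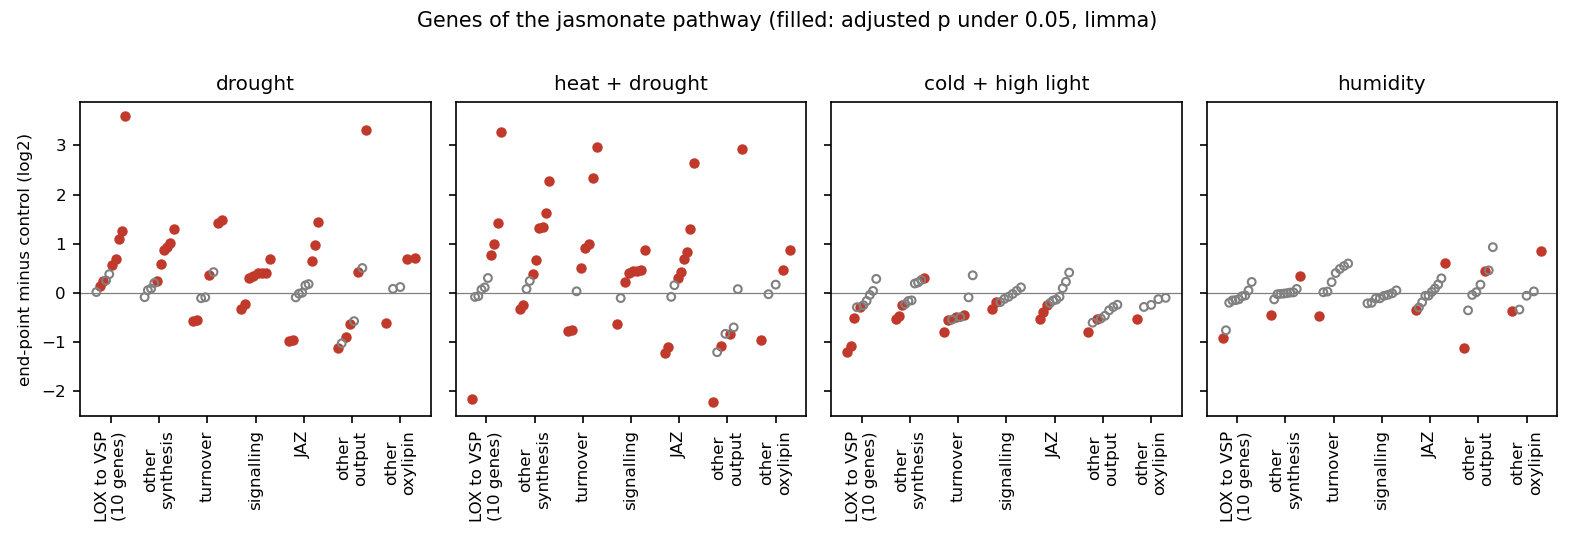
End-point minus control (log2, y axis) of each tested gene in 7 groups of the jasmonate pathway, sorted by size within a group, in 4 stresses, with filled points where limma's adjusted p was under 0.05. In drought and heat with drought, VSP2 and CORI3 (both near 3) stand above the rest of their groups, while in humidity few genes passed.

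Correlations between members were computed over the 17 group means and, after those means were removed, over the libraries. Over the means, Pearson's r was 0.92 for VSP1 and VSP2, 0.90 for LOX3 and VSP2, 0.82 for AOC1 and VSP2 and 0.86 for AOS and AOC2, but -0.42 for LOX2 and LOX3 and -0.25 for LOX2 and VSP2. These are descriptions over 17 means of libraries aligned in the same way. Within groups the order differed. Over the 51 libraries, r was 0.72 for LOX2 and AOS, 0.67 for VSP1 and VSP2 and 0.49 for LOX2 and VSP2. It was 0.34 for AOC1 and VSP2 and 0.15 for LOX3 and VSP2. The recovered cold with high light library 2 that stood apart was kept here. It held the lowest LOX2 (11.94) and AOS (10.82) of its group, and its weight in these correlations was not tested.

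The tested genes most like each member over the 17 means were found by the same correlation. For LOX2 they were AKN2 (0.93), CYP83A1 (0.93) and BAT5 (0.92), known from sulphate activation and glucosinolate synthesis. For VSP2 they were FMO GS-OX2 (0.98), a glucosinolate S-oxygenase, AT4G17470 (0.96) and AT3G05640 (0.95), and for VSP1 they were MYC2 (0.91), AT4G17470 (0.90) and HMT3 (0.89). LOX3 was most like AT5G26600, KAB1 and ELF5A-3 (0.95 to 0.96), LOX4 like SARD1, AT1G09932 and ADT4 (0.89 to 0.90), and AOC1 like UMAMIT33, AT1G69450 and AT1G66890 (0.96 each). AOS and AOC2 shared D-CDES as their closest gene (0.90 and 0.89). OPR3 was closest to AT2G04080 (0.95) and JAR1 to AT5G20700 (0.91).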

How the data were processed

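The 1 table that the authors deposited holds regularized log (rlog) values, a log2 scale that shrinks weakly expressed genes towards their mean. Trimmomatic, STAR, featureCounts, DESeq2 and build TAIR10 are named in the submitters' processing notes, and versions and strand settings are not given in the sources used here. Depth is unknown. Of 57 columns, 51 matched a sample by name. The other 6 could not be matched and were not used, so heat with drought and high light was not analysed here. Of 28775 genes, 2657 stood at 0 throughout, and the test covered the 19010 whose mean rlog reached 3. Each library was aligned on its median over tested genes. All 51 libraries were fitted with 1 mean per group in limma 3.58.1 in R 4.3.3, with a trended, robust, moderated two-sided test and Benjamini-Hochberg adjustment over all tested genes in each of 29 comparisons. Replicate libraries correlated at 0.980 to 0.998, and 0 pairs were identical. The fit was tested on simulated data with independent noise in each library, so that test does not cover libraries that deviate together.

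Alternatives were the values as deposited, quantile normalization, other filters on low values (none, or a mean of at least 5), no trend, a fit on the compared groups only, the replicate number as a block, and leaving out each library. The labels do not say that a number marks a shared batch. Same-numbered libraries deviated together (every correlation over 0.1) in 5 of 29 comparisons, which were heat, high light and heat with high light against the control, heat by high light, and heat with drought against drought. Sequences came from RefSeq TAIR10.1, whose gene identifiers match those deposited, read with Biopython 1.88. Python 3.11.15, pandas 2.3.3, numpy 2.4.6 and matplotlib 3.10.9 were used. The members and gene lists were chosen with earlier results of these data known. All 10 members are named, and of each other list at most the 3 passing genes with the largest absolute difference in a comparison. The genes most like a member are the 3 with the highest Pearson correlation. Marker lists covered rosette leaf, guard cell, phloem, myrosin cell, root and flower. Of the root and flower lists 1 of 3 genes each was tested, and their averages reached at most 4.09 and 2.30 in any library, while the 2 myrosin cell genes averaged 15.3 in the control.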

Additional observations from a re-analysis of the deposited data

Results flagged for a closer look

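Differences of the heat response with and without drought were tested as an interaction, and 4 members passed: LOX2 (-2.72), VSP2 (-2.11), OPR3 (-0.57) and JAR1 (-0.50). For LOX2, heat alone gave 0.29 and the addition of heat to drought gave -2.42. For VSP2 the corresponding differences were 1.79 and -0.32, for OPR3 0.37 and -0.21, and for JAR1 0.19 and -0.32. The LOX2 and OPR3 interactions also passed in a fit on the 4 groups alone.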

How the results depend on the processing

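Of 66 member calls over all comparisons, 45 passed in every refit without 1 library, and 33 also passed under every planned setting. With values as deposited, end-point calls were 32 higher and 3 lower in place of 16 and 9, recovery against end-point calls 6 higher and 24 lower in place of 11 and 14, and heat with drought against drought 2 in place of 4. As deposited, the sign turned for OPR3 at the end-points of cold (0.0472), cold with high light (0.22) and heat with drought (0.67), LOX3 in cold with high light (0.35) and JAR1 in heat with drought (0.65). Between recovery and end-point it turned for OPR3 in cold (-0.0774), cold with high light (-0.28), drought (-0.30) and heat with drought (-0.51), LOX3 in cold with high light (-0.38) and JAR1 in heat with drought (-0.59), and under quantile normalization for JAR1 in cold with high light (0.0732). A fit on the compared groups only gave 25 higher end-point calls, with 1.5% to 29.2% of all genes higher by stress. It gave 1 recovery call (OPR3 after drought), with 2.15% of genes higher. The interaction of heat with drought had 2 calls, with 0.452% of genes called in place of 16.2%. Cold with high light against cold had 4, with 14.2% of genes called in place of 3.31%. Heat with drought against drought had 0, with 0.316% of genes called in place of 44.2%. Cold with high light against cold gave 1 call (AOC1) without a filter, with the replicate block, and with the odd recovered library left out of the spread.

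Leaving out 1 library gave 11 to 18 higher and 6 to 9 lower end-point calls, 0 recovery calls, 9 to 14 higher and 11 to 15 lower calls between recovery and end-point, 4 to 6 for the interaction of heat with drought, 4 to 5 for heat with drought against drought, 7 to 9 for drought against humidity, 0 for heat by high light and for added light in the cold, and 8 to 11 returns. The replicate block over all groups changed 3 calls, adding AOC2 to the interaction of heat with drought (-0.78, adjusted p = 0.0302) and to drought against humidity (0.47, 0.0197), and AOC1 to cold with high light against cold (-0.58, 0.0464). A block in a fit on the compared groups, added after seeing the data, gave 29 higher end-point calls, with 1.34% to 27.6% of all genes higher by stress. It gave 1 call for heat by high light, with 3% of genes below the sum. There were 3 recovery calls (LOX4 after drought, LOX2 and AOC2 after humidity) and 4 for cold with high light against cold. The shares of all genes for these last counts are not given here. With no counts, depth sets no stated limit, and the shrinkage of rlog can understate differences of weakly expressed genes.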
